A study of Mus musculus with 230 samples.

Results

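The comparison asked what a history of cocaine self-administration leaves in the RNA of the basolateral amygdala after 30 d of withdrawal. It used the 12 basolateral amygdala (BLA) libraries of mice that received a saline injection at 30 d and were killed 1 h later, out of 38 BLA libraries and 230 libraries in the series. In 5 of them the mice had self-administered cocaine (CS, mouse-014, mouse-072, mouse-091, mouse-111 and mouse-151), and in 7 they had self-administered saline (SS, mouse-011, mouse-035, mouse-052, mouse-073, mouse-122, mouse-143 and mouse-162). Libraries were chosen from the labelled region, self-administered solution and injection alone. All mice were male C57BL/6J mice from The Jackson Laboratory, a commercial breeder, and their age was not given in the sources used here. Injections took place in the context of self-administration. CS mice thus returned to a cocaine-paired context and SS mice to a saline-paired one. A lasting effect of the history and a response to that context cannot be told apart here. CC and SC mice, which had the same histories but received cocaine at 30 d, gave 6 and 7 BLA libraries, and C24 and S24 mice, taken after 24 h of withdrawal without an injection, gave 6 and 7. Each library's title carries a number, read here as that of the mouse. Nothing in the labels says that libraries of a group came from separate mice, so p-values measure the spread between these libraries, which may be technical.

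Self-administration lets an animal work for an intravenous drug infusion, and long withdrawal is used as a model of lasting risk of relapse. The BLA holds mostly glutamatergic projection neurons and fewer GABA interneurons, and ties drug-paired cues to drug seeking through its input to the nucleus accumbens. Among the genes described below are receptors of the cytokine families and their targets. Oncostatin M and related cytokines act through a receptor pair that contains OSMR, the kinases bound to it phosphorylate STAT3, and STAT3 induces reactive glia genes and the feedback inhibitor SOCS3. Glucocorticoid hormone, released by stress, induces another set of genes through a nuclear receptor, many of them in astrocytes and blood vessels.

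Library totals ran from 17357567 to 23649289 counts in CS and from 16176371 to 27335717 counts in SS, and the 66 pairs among the 12 libraries had correlations of log expression between 0.9747 and 0.9960. The glutamatergic transporter gene Slc17a7 averaged 727 ± 265 CPM (counts scaled by library size and TMM factor) in CS and 794 ± 376 CPM in SS (SD, n = 5 and 7), and Rspo2, a secreted growth factor gene of BLA projection neurons, averaged 23.2 ± 2.36 CPM in CS and 30.5 ± 12.4 CPM in SS. All 16 amygdala glutamatergic markers were measured. Markers of the neighbouring striatum and central amygdala were measured too, and their summed level differed widely between dissections, with 671 to 4600 CPM in CS and 883 to 4220 CPM in SS. Their mean log2 level, relative to the SS mean, was -1.79 in CS mouse-091, whereas the other 4 CS mice had 0.10 to 0.80, and it ran from -1.34 to 0.75 in SS. In bulk tissue, fewer cells of a type and less RNA per cell cannot be told apart.

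No gene passed the test between CS and SS. Of 17024 genes tested with edgeR's quasi-likelihood test, 0 (0.0%) had a Benjamini-Hochberg adjusted p under 0.05, and 0 had one with DESeq2 or limma voom. The adjusted p was 1.00 for every gene, so the values below are descriptions of differences that did not pass. At an unadjusted p under 0.05 there were 500 genes (2.94%) with edgeR, 528 with DESeq2 and 472 with limma voom. Where no gene differs, a share of about 0.05 is expected at such a p, and 2.94% lies below it. Of the 500, 326 (1.91% of those tested) had a positive log2 fold change, CS over SS, and 174 (1.02%) a negative one, whereas 49.7% of all genes tested had a positive value. The median standard error of a log2 fold change was 0.14. In 17 genes (0.0999%) every CS library lay above every SS library, and in 11 (0.0646%) every CS library lay below. Leaving out CS mouse-151 left 196 genes at an unadjusted p under 0.05, and leaving out CS mouse-091 gave 889.

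**Figure D1:**
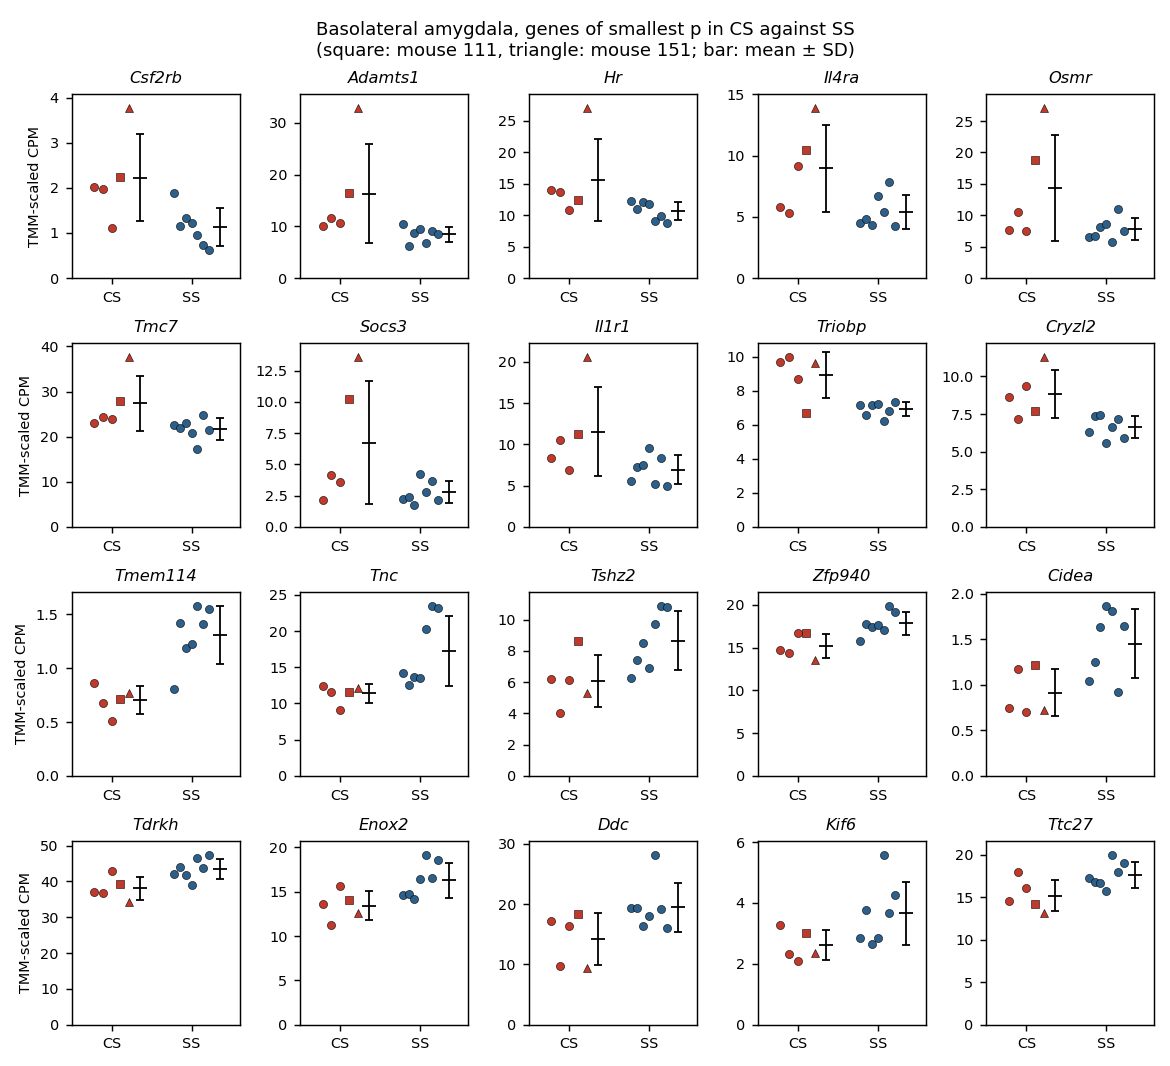
TMM-scaled CPM of the 10 protein-coding genes of smallest p among positive and the 10 among negative log2 fold changes, 1 point per library, with CS on the left and SS on the right of each panel and mean ± SD beside the points. The highest CS point of Osmr, Socs3, Adamts1, Hr and Il1r1 is mouse-151 (triangle), whereas all 5 CS points of Tnc, at 9.15 to 12.4 CPM, lie below the lowest SS point of 12.6 CPM.

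Of the 10 protein-coding genes of smallest p with positive values, 4 encode cytokine receptor chains, and 1, Socs3, an inhibitor of cytokine signalling. They were grouped after the genes were seen, and the share of such genes among all genes tested was not computed. The count is thus a description and not a result about this class. Osmr, which encodes the signalling subunit of the oncostatin M receptor, had 7.66, 10.5, 7.56, 18.8 and 27.1 CPM in CS mouse-014, mouse-072, mouse-091, mouse-111 and mouse-151, against 5.73 to 11 CPM in SS (median 7.47). CS mouse-111 and mouse-151 lay above all SS mice and the other 3 CS mice within their range. Its log2 fold change was 0.89 ± 0.27 (SE; unadjusted p = 0.00197, adjusted p = 1.00, edgeR). Without mouse-111 and mouse-151, left out after their values were seen, the log2 fold change of Osmr was 0.15. Leaving out the highest CS values lowers a log2 fold change by construction. Such values, here and below, show only how far a difference rested on these mice. Socs3, the feedback inhibitor of STAT3 signalling, had 2.13, 4.18, 3.59, 10.2 and 13.6 CPM in the CS mice in the same order, against 1.79 to 4.21 CPM in SS (median 2.40). Again only mouse-111 and mouse-151 lay above the SS range. The log2 fold change of Socs3 was 1.30 ± 0.40 (SE; unadjusted p = 0.00244, adjusted p = 1.00, edgeR), and 0.27 without those mice.

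In the other receptor genes among them, mouse-151 and mouse-111 again had the highest CS values. Il1r1, the signalling receptor of interleukin-1, had 8.35, 10.5, 6.86, 11.3 and 20.6 CPM in CS mouse-014, mouse-072, mouse-091, mouse-111 and mouse-151, against 4.95 to 9.58 CPM in SS (median 7.21). Il4ra, the interleukin-4 receptor alpha chain, had 5.82, 5.35, 9.19, 10.5 and 13.9 CPM in the CS mice, against 4.22 to 7.85 CPM in SS (median 4.85). In both genes 3 of the 5 CS mice lay above all SS mice. Csf2rb, the beta chain shared by receptors of interleukin-3, interleukin-5 and GM-CSF, had 2.02, 1.98, 1.12, 2.23 and 3.77 CPM in the CS mice, against 0.631 to 1.89 CPM in SS (median 1.16), and 4 of 5 CS mice lay above all SS mice. The log2 fold changes were 0.74 ± 0.23 for Il1r1, 0.73 ± 0.22 for Il4ra and 0.96 ± 0.27 for Csf2rb (SE), and without mouse-111 and mouse-151 they were 0.31, 0.33 and 0.57. Csf2rb rested on 24 to 78 reads in CS and 12 to 40 in SS, and 12.3% of its 50-base words also occur in other genes, so part of its reads may be misassigned.

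The remaining positive genes of smallest p have other functions, and Adamts1 and Hr had a smaller p than Osmr, Il4ra and Il1r1. Adamts1 encodes a secreted protease that cuts matrix proteoglycans, and had 10, 11.6, 10.7, 16.5 and 32.9 CPM in the CS mice, against 6.19 to 10.4 CPM in SS (median 8.66). Hr encodes a nuclear corepressor that binds the thyroid hormone receptor, and had 13.9, 13.7, 10.8, 12.4 and 27.0 CPM in the CS mice, against 8.78 to 12.3 CPM in SS (median 11). In both, 4 of the 5 CS mice lay above all SS mice and mouse-151 stood well above the rest. Without mouse-111 and mouse-151, the log2 fold change was 0.35 for Adamts1, against 0.95 ± 0.27 (SE) with them, and 0.26 for Hr, against 0.54 ± 0.15. In Triobp, which encodes an actin-bundling protein, and Cryzl2, which encodes a predicted oxidoreductase, mouse-111 was not among the 3 highest CS mice. Triobp had 9.68, 10, 8.68, 6.69 and 9.61 CPM in the CS mice, against 6.21 to 7.33 CPM in SS (median 7.14), so mouse-111 alone lay within the SS range. Cryzl2 had 8.64, 7.15, 9.33, 7.70 and 11.3 CPM in the CS mice, against 5.56 to 7.46 CPM in SS (median 6.64). Their log2 fold changes of 0.37 ± 0.12 and 0.41 ± 0.13 (SE) were 0.45 and 0.34 without mouse-111 and mouse-151. Tmc7, of the family of transmembrane channel-like proteins, had a log2 fold change of 0.34 ± 0.10 (SE), and 0.13 without them.

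Oncostatin receptor and reactive glia genes were listed because earlier work on these libraries had pointed to Osmr, so the list is not independent evidence. Of its 19 members tested, out of 20 listed, 18 had a positive log2 fold change, and the median was 0.25, against -0.000663 over all genes tested. At an unadjusted p under 0.05 were 7 members with positive values, Osmr, Socs3, Steap4, Lcn2, Cp, C4b and Serpina3n, and 1 with a negative value, Timp1. Over all genes tested the shares were 1.91% positive and 1.02% negative. These members are not separate evidence, since Osmr, Socs3, Steap4 and Serpina3n each lay above the SS range only in mouse-111 and mouse-151. None of the 19 had an adjusted p under 0.05. STAT3-binding sequence is known from promoters of such genes, and the promoters of 3 members with a STAT-type palindrome are printed to show where it stands. The RefSeq promoter table (GRCm38.p6) holds 250 bases before and 50 after the start of 18 of the 19 members. The palindrome TTCNNNGAA, which reads the same on both strands, was found in 4 of the 18 (22.2%; Socs3, Gfap, Steap4 and Tgm1), against 2582 of 27025 genes (9.55%) in the whole table. A match of these letters is not a bound site. Capitals mark the palindrome in the windows at chr11:117969317-117969616 (minus strand), chr5:7960222-7960521 (plus strand) and chr11:102897151-102897450 (minus strand).
Socs3: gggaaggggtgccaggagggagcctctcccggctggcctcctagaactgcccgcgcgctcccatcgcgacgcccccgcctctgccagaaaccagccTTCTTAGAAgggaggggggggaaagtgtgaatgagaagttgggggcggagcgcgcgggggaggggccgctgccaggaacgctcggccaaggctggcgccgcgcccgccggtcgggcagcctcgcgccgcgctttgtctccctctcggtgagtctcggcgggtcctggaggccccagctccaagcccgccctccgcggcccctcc
Steap4: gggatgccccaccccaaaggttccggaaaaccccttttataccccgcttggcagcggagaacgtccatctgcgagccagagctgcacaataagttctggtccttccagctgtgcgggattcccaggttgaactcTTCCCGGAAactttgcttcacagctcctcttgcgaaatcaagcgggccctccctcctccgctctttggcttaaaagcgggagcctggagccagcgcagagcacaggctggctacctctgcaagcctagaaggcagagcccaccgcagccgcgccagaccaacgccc
Gfap: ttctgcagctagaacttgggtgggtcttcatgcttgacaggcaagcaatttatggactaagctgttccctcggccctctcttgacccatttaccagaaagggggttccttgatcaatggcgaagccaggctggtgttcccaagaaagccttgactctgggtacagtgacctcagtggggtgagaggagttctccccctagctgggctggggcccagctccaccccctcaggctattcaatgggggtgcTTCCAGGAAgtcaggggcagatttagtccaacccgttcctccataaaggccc

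Steap4, a metalloreductase gene induced in reactive astrocytes, had 0.576, 1.44, 0.327, 5.80 and 7.39 CPM in CS mouse-014, mouse-072, mouse-091, mouse-111 and mouse-151, against 0.191 to 2.38 CPM in SS (median 0.356). CS mouse-111 and mouse-151 alone lay above the SS range. Its log2 fold change was 2.05 ± 0.67 (SE; unadjusted p = 0.00442, adjusted p = 1.00, edgeR), and 0.07 without those mice. Serpina3n, a secreted protease inhibitor of reactive astrocytes, had 14.5, 17.4, 17.2, 30.3 and 40.1 CPM in the CS mice, against 13.4 to 18.6 CPM in SS (median 18.1), and its log2 fold change of 0.49 ± 0.22 (SE) was -0.05 without mouse-111 and mouse-151. Gfap, the astrocyte intermediate filament gene, had 58.1, 62.1, 73.8, 83 and 159 CPM in the CS mice, against 50.8 to 71.9 CPM in SS (median 54.2). Its log2 fold change was 0.64 ± 0.38 (SE; unadjusted p = 0.105, edgeR), and a predicted gene overlaps it on the opposite strand. Lcn2, the secreted iron-siderophore carrier lipocalin 2, averaged 24.8 ± 18.6 CPM in CS and 8.88 ± 4.94 CPM in SS (SD, n = 5 and 7). Ceruloplasmin (Cp), a copper-binding ferroxidase, averaged 22.8 ± 7.59 CPM in CS and 15.3 ± 2.41 CPM in SS, and complement C4b averaged 31.1 ± 9.70 CPM in CS and 23.1 ± 4.13 CPM in SS. Timp1, a metalloprotease inhibitor, averaged 0.404 ± 0.16 CPM in CS and 0.616 ± 0.192 CPM in SS. The components that transmit the signal differed little, with log2 fold changes of 0.12 for the coreceptor Il6st, 0.06 for Lifr and 0.10 for Stat3.

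Glucocorticoid-responsive genes had positive values in 21 of 22 members, with a median log2 fold change of 0.30. At an unadjusted p under 0.05 were 5 members, each with a positive value, Lcn2, Cdkn1a, Arrdc2, Map3k6 and Angptl4, against 1.91% of all genes tested. The list shares Fkbp5 and Lcn2 with the preceding one. Cdkn1a, a cell cycle inhibitor gene, had 16.2, 31, 15.8, 27.5 and 33.6 CPM in CS mouse-014, mouse-072, mouse-091, mouse-111 and mouse-151, against 14.6 to 20.8 CPM in SS (median 16.9). CS mouse-072, mouse-111 and mouse-151 lay above all SS mice, and mouse-014 and mouse-091 within their range. The log2 fold changes were 0.49 ± 0.21 for Cdkn1a, 0.56 ± 0.24 for the kinase gene Map3k6 and 0.45 ± 0.20 for the arrestin-domain gene Arrdc2 (SE). Fkbp5, a chaperone of the glucocorticoid receptor and one of its most used target genes, averaged 71.0 ± 9.55 CPM in CS and 64.3 ± 9.50 CPM in SS (SD, n = 5 and 7; log2 fold change 0.14 ± 0.14 SE). Sgk1, a hormone-induced kinase gene, and Tsc22d3, which encodes the leucine zipper protein GILZ, had log2 fold changes of 0.33 and 0.31. The median of the list was 0.19 without mouse-151 and 0.12 without mouse-111 and mouse-151.

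For the interferon-induced genes CS mouse-091 stood high beside mouse-151, and for the heat shock genes mouse-151 and mouse-111 were again the highest. Of 26 interferon-induced members, 23 had a positive log2 fold change, with a median of 0.25, and 3 were at an unadjusted p under 0.05, each with a positive value. Over all genes tested 1.91% were at such a p with a positive value. Iigp1, an interferon-induced GTPase gene, had 1.27, 1.17, 2.94, 2.90 and 5.99 CPM in the CS mice, against 0.43 to 1.51 CPM in SS (median 1.12), so mouse-091, mouse-111 and mouse-151 lay above all SS mice. The log2 fold change was 1.43 ± 0.47 for Iigp1, 0.53 ± 0.23 for the class I antigen gene H2-K1 and 0.53 ± 0.23 for the immunoproteasome subunit gene Psmb8 (SE). The mean log2 level of this list was 0.52 in CS mouse-151, 0.46 in mouse-091 and 0.20 in mouse-111, above the SS range of -0.25 to 0.14, and 0.08 and 0.13 in mouse-014 and mouse-072. Of 24 heat shock and protein folding genes, 17 had positive values, with a median of 0.07. At an unadjusted p under 0.05 were 2, each with a positive value, against the same 1.91% of all genes. Their mean log2 level was 0.47 in CS mouse-151 and 0.33 in mouse-111, and -0.28 to 0.14 in the other CS mice, against -0.19 to 0.15 in SS. Bag3, a cochaperone gene, had 8.06, 9.54, 7.33, 15.6 and 23.1 CPM in the CS mice, against 5.97 to 11.5 CPM in SS (median 8.98). The inducible chaperone gene Hspa1b had 7.77, 22, 13.0, 32.7 and 45.6 CPM in the CS mice, against 5.92 to 21.5 CPM in SS (median 10.3). Without mouse-111 and mouse-151, the log2 fold change of Bag3 was -0.07, against 0.54 ± 0.22 (SE) with them, and that of Hspa1b was 0.14, against 0.90 ± 0.42.

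**Figure D2:**
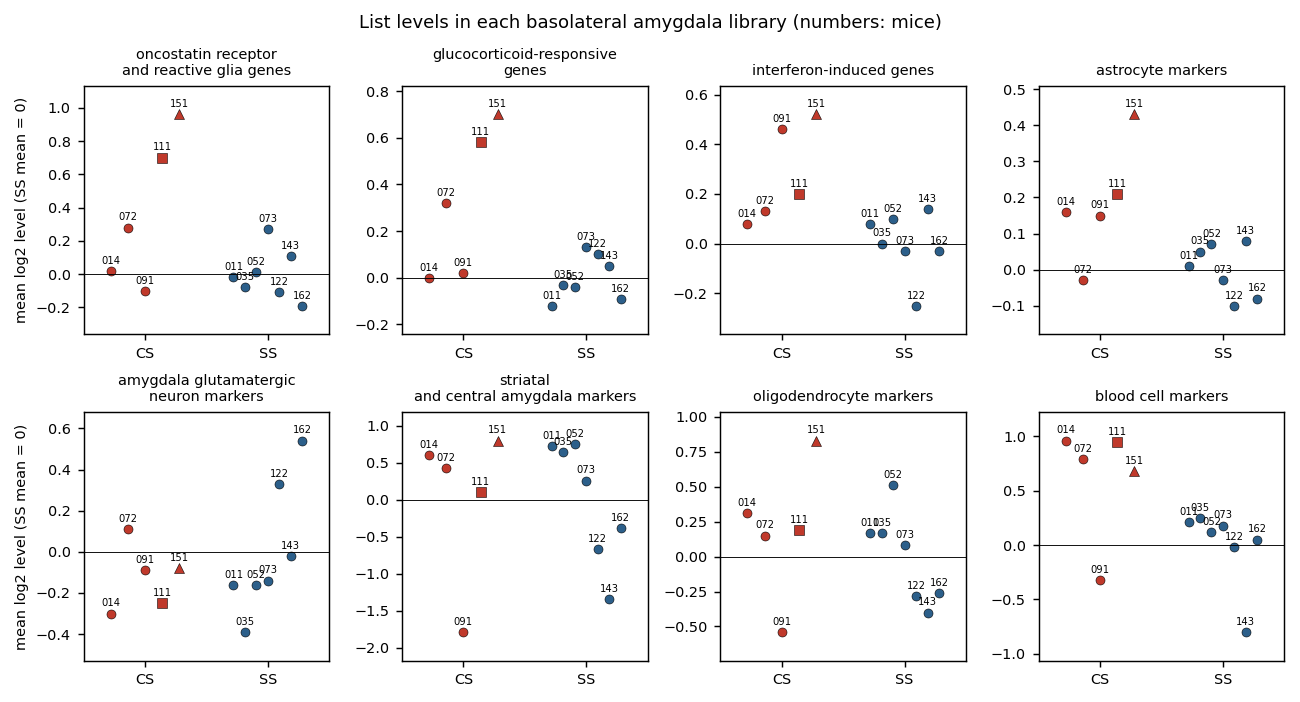
Mean log2 level of 8 gene lists in each BLA library (numbers are mice), relative to the SS mean, with CS on the left and SS on the right of each panel. CS mouse-111 and mouse-151 stand at 0.70 and 0.96 for the reactive glia list, against -0.19 to 0.27 in SS, and CS mouse-091 stands lowest for the striatal, oligodendrocyte and, within CS, blood cell markers.

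The same mice stood apart in other regions for the reactive glia and heat shock lists, and in fewer regions for the glucocorticoid list. With all 230 libraries scaled together, the mean log2 level of the reactive glia list in the BLA reached 0.96 and 0.70 for mouse-151 and mouse-111 of CS and -0.10 to 0.28 for the other 3 CS mice, while the 7 SS mice had -0.18 to 0.28. In the dorsal striatum (CPu) the list stood at 0.67 and 0.78 in mouse-111 and mouse-151, against -0.24 to 0.31 in SS. In the nucleus accumbens (NAc) it stood at 0.67 and 0.79, against -0.20 to 0.34 in SS, and in the prefrontal cortex (PFC) at 0.77 and 0.53, against -0.36 to 0.31 in SS. In the ventral hippocampus (vHipp) it stood at 0.29 and 0.17, within the SS range of -0.40 to 0.50. Neither mouse had a library of the ventral tegmental area (VTA). Among mice given cocaine at 30 d, CC mouse-115 stood at 0.96 in the BLA, against -0.00 to 0.31 in the other CC mice and -0.11 to 0.24 in SC. The glucocorticoid list in the BLA stood at 0.59 and 0.71 in mouse-111 and mouse-151, against -0.11 to 0.14 in SS. It stood at 0.54 and 0.40 in CPu, against -0.28 to 0.22 in SS, and at 0.48 and 0.46 in NAc, against -0.18 to 0.15 in SS. In PFC the values of 0.26 and 0.06 lay within the SS range of -0.38 to 0.54, and in vHipp 0.19 and 0.15 lay beside an SS range of -0.17 to 0.16. The heat shock list stood at 0.40 and 0.42 in CPu (SS up to 0.37) and at 0.48 and 0.63 in NAc (SS up to 0.23). In PFC it stood at 0.16 and 0.39 (SS up to 0.13), and in vHipp at 0.45 and 0.61 (SS up to 0.17, other CS mice up to 0.37). The interferon list of these mice lay above the SS range in the BLA and NAc only.

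**Figure D3:**
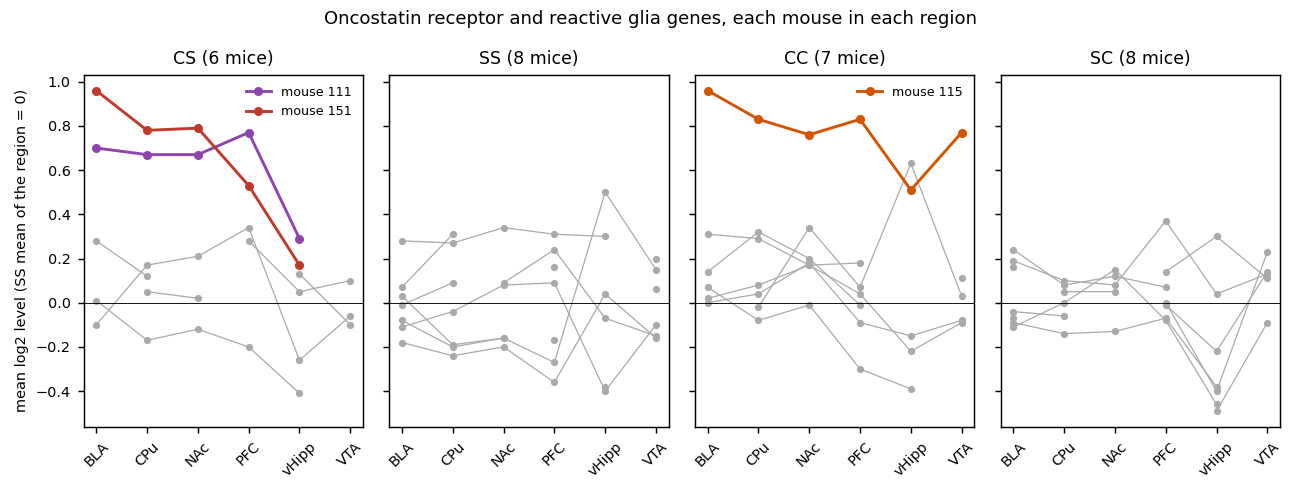
Mean log2 level of the oncostatin receptor and reactive glia genes in every mouse and region, relative to the SS mean of the region, with 1 panel per condition and 1 line per mouse. The lines of CS mouse-111 and mouse-151 and of CC mouse-115 run between 0.53 and 0.96 in BLA, CPu, NAc and PFC, above the other mice of their panels, and come closer to them in vHipp.

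The genes of smallest p with negative values were of mixed function. Tmem114, a claudin-related membrane protein gene, had the smallest p of all 17024 genes. It had 0.864, 0.675, 0.513, 0.715 and 0.772 CPM in CS mouse-014, mouse-072, mouse-091, mouse-111 and mouse-151, against 0.803 to 1.58 CPM in SS (median 1.41). In 4 of 5 CS mice it lay below every SS mouse, and SS mouse-011 overlapped with CS. The log2 fold change was -0.89 ± 0.21 (SE; unadjusted p = 0.000163, adjusted p = 1.00, edgeR) and ran from -0.97 to -0.79 over the alternative settings, with an adjusted p between 0.634 and 1.00. These levels are low, with 11 to 17 reads for Tmem114 in each CS library and 17 to 33 in each SS library.

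Tnc encodes tenascin C, a matrix glycoprotein of astrocytes. It was among 3 named genes in which CS and SS did not overlap. The others were the histone methyltransferase gene Ehmt1 (log2 fold change -0.11 ± 0.06 SE) and the sialidase gene Neu4 (0.23 ± 0.12 SE). Over all 17024 genes tested, every CS library lay above every SS library in 17 (0.0999%) and below in 11 (0.0646%). Most named genes were chosen by their p in these same libraries, so non-overlap among them is not separate evidence. Tnc had 12.4, 11.6, 9.15, 11.6 and 12.2 CPM in the CS mice, against 12.6 to 23.5 CPM in SS (median 14.2). The log2 fold change was -0.60 ± 0.19 (SE; unadjusted p = 0.00369, adjusted p = 1.00, edgeR), and -0.64 without mouse-111 and mouse-151. Its high SS values of 20.3, 23.5 and 23.2 CPM belonged to mouse-122, mouse-143 and mouse-162, whose striatal marker levels of -0.67, -1.34 and -0.38 were the lowest in SS. With the striatal marker level as a covariate, an alternative added after the data were seen, the log2 fold change of Tnc was -0.55, and 638 genes had an unadjusted p under 0.05 but none an adjusted one. CS mouse-091, with the lowest striatal marker level of all 12, had the lowest Tnc value.

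Prkcd and Cyp26b1 were high in some of the same SS mice. Prkcd, a kinase gene that marks a class of central amygdala neurons, had 31.2, 21.5, 15.6, 47.7 and 28.4 CPM in the CS mice, against 26.8 to 110 CPM in SS (median 34.3). Cyp26b1, which encodes a retinoic acid hydroxylase, averaged 123 ± 17.4 CPM in CS (SD, n = 5), and SS had 101 to 260 CPM with a median of 152 CPM. Both ranges overlap, and the SS values above every CS value came from mouse-122, mouse-143 and mouse-162 and, for Cyp26b1, mouse-011 as well. The log2 fold changes were -0.73 ± 0.33 and -0.48 ± 0.22 (SE), with unadjusted p-values of 0.0346 and 0.0351 (edgeR). Prkcd had the lowest log2 fold change of the 18 striatal and central amygdala markers, of which 11 had positive values (median 0.22). The part of the dissection in these differences was not tested.

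The other named genes with negative values had smaller differences or doubtful counts. Zfp940, a zinc finger gene, had 14.7, 14.4, 16.7, 16.7 and 13.6 CPM in the CS mice, against 15.8 to 19.9 CPM in SS (median 17.6), a log2 fold change of -0.23 ± 0.08 (SE). Cidea, a lipid droplet protein gene, had 0.749, 1.17, 0.70, 1.22 and 0.724 CPM in the CS mice, against 0.919 to 1.87 CPM in SS (median 1.64), a log2 fold change of -0.67 ± 0.23. Ddc, the aromatic amino acid decarboxylase of dopamine and serotonin synthesis, had 17.2, 9.76, 16.3, 18.4 and 9.36 CPM in the CS mice, against 16.1 to 28.2 CPM in SS (median 19.1), a log2 fold change of -0.46 ± 0.16. In each of these genes CS and SS overlapped. Kif6, a kinesin gene, had a log2 fold change of -0.48 ± 0.17 (SE), Enox2, an oxidase gene, -0.28 ± 0.10, and Ttc27, a tetratricopeptide repeat gene, -0.21 ± 0.08. Tshz2, a zinc finger homeobox gene, stood at -0.51 ± 0.17, but 65.6% of its 50-base words occur in other genes and 3 genes lie on the opposite strand. Tdrkh, a gene of the small RNA pathway of the germ line, stood at -0.19 ± 0.07, with 34.7% of its words shared and Oaz3 on the opposite strand. Tnc, Zfp940, Cidea, Enox2, Ddc and Kif6 also have a gene on the opposite strand, and the strand setting of the counting was not given in the sources used here, so reads of the partners cannot be told apart.

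Neuronal activity and synaptic receptor and channel lists had medians between -0.12 and 0.01. Of 30 immediate early genes, which neurons induce within minutes of strong activity, 10 had a positive log2 fold change, with a median of -0.03, and 0 were at an unadjusted p under 0.05. Fos averaged 38.2 ± 8.49 CPM in CS and 41.5 ± 7.61 CPM in SS (SD, n = 5 and 7), Arc 152 ± 18.7 CPM in CS and 156 ± 27.3 CPM in SS, and Npas4 31 ± 1.74 CPM in CS and 34.6 ± 7.30 CPM in SS. Their log2 fold changes were -0.12 ± 0.20, -0.03 ± 0.21 and -0.16 ± 0.20 (SE), and that of Egr1 was -0.10 ± 0.14. Of 18 GABA receptor subunit genes, 3 had positive values and the median was -0.12, with none at an unadjusted p under 0.05. Gabra2, the alpha2 subunit, had a log2 fold change of -0.19 ± 0.10 and Gabra3 of -0.22 ± 0.13 (SE). Of 23 AMPA and kainate receptor genes 8 had positive values (median -0.05), and of 21 NMDA and metabotropic glutamate receptor genes 7 (median -0.07). Grm8, a presynaptic metabotropic receptor, stood at -0.35 ± 0.13 and the NMDA subunit Grin3b at 0.91 ± 0.45. Grin3b was near the floor, with 5 to 17 reads per library in CS and 2 to 11 in SS. Of 33 tested monoamine and acetylcholine receptor genes 13 had positive values (median -0.02), of 11 endocannabinoid genes 5 (median -0.03) and of 34 potassium channel genes 19 (median 0.01).

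Neuropeptide, matrix, retinoid, clock, chromatin and oxidative phosphorylation lists had medians between -0.11 and 0.06. Of 41 neuropeptide and peptide receptor genes 13 had positive values, with a median log2 fold change of -0.11. Tac2, the neurokinin B precursor, had 29.5, 11.5, 21.7, 42.6 and 8.83 CPM in the CS mice, against 14.7 to 88.1 CPM in SS (median 33.4), a log2 fold change of -0.79 ± 0.37 (SE; unadjusted p = 0.0417, edgeR) with groups that overlap. The gastrin-releasing peptide receptor gene Grpr stood at -0.75 ± 0.37, on only 7 to 11 reads per library in CS and 8 to 23 in SS. Perineuronal net and matrix genes, which form the coat around parvalbumin cells, had 13 positive values of 19 (median 0.05), with Tnc and Sparc at an unadjusted p under 0.05. Sparc, a matrix glycoprotein gene, averaged 460 ± 180 CPM in CS and 351 ± 77.7 CPM in SS (SD, n = 5 and 7). Of 19 retinoid genes 11 had positive values (median 0.04), of 20 clock genes 15 (median 0.06), of 33 chromatin regulator genes 10 (median -0.04) and of 46 oxidative phosphorylation genes 30 (median 0.03). In the chromatin, oxidative phosphorylation and clock lists 0 members were at an unadjusted p under 0.05.

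**Figure D4:**
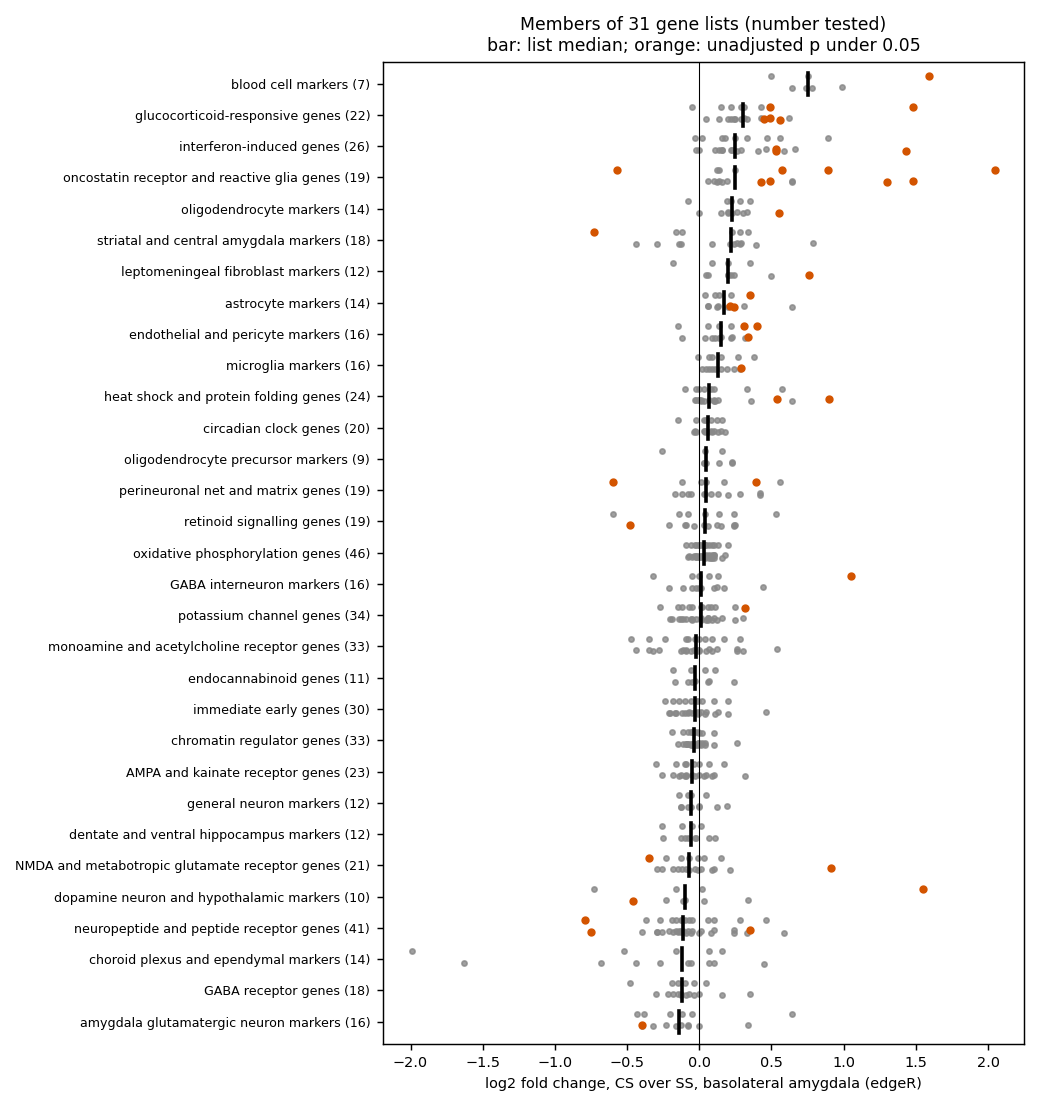
Log2 fold change, CS over SS in the BLA, of every tested member of the 31 gene lists, 1 row per list in order of its median (black bar), with members at an unadjusted p under 0.05 in orange. Medians run from -0.14 for the amygdala glutamatergic markers to 0.75 for the blood cell markers, and no member has an adjusted p under 0.05.

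Markers of glia, vessels and blood had positive list medians, amygdala glutamatergic and general neuron markers negative ones, and GABA interneuron markers one of 0.01. Their part in the differences above was not tested. All 14 astrocyte markers had a positive log2 fold change (median 0.17), as did 15 of 16 microglia markers (median 0.13), 13 of 14 oligodendrocyte markers (median 0.23), 14 of 16 endothelial and pericyte markers (median 0.15) and all 7 tested blood cell markers (median 0.75). Of 16 amygdala glutamatergic markers 3 had positive values (median -0.14), of 12 general neuron markers 4 (median -0.06) and of 16 GABA interneuron markers 9 (median 0.01). The summed astrocyte marker level was 5380 to 6640 CPM in CS and 5190 to 5930 CPM in SS, that of microglia markers 519 to 786 CPM in CS and 472 to 660 CPM in SS, and that of blood cell markers 32.2 to 121 CPM in CS and 17.8 to 54.0 CPM in SS. In each case the ranges overlap. Without mouse-111 and mouse-151 the medians were 0.08 for astrocytes, 0.06 for microglia, -0.00 for oligodendrocytes and 0.77 for blood cells. Ntsr2, an astrocytic neurotensin receptor gene, had 90.2, 79.6, 98.8, 95.9 and 130 CPM in the CS mice, against 67.1 to 86.5 CPM in SS (median 82.6). Tmem119, a microglial surface protein gene, had 29.9, 33.7, 26.8, 29.0 and 41.7 CPM in the CS mice, against 23.0 to 29.1 CPM in SS (median 26.6). For Ntsr2, 4 CS mice lay above all SS mice. Pvalb, the calcium-binding protein of fast-spiking interneurons, had 7.14, 23.2, 6.53, 24.1 and 58.7 CPM in the CS mice, against 3.62 to 27.2 CPM in SS (median 8.30). Pomc, the precursor of beta-endorphin and a hypothalamic marker, stood at 11.5 CPM in CS mouse-014, whereas its 4 fellow CS mice had 0.799 to 1.17 CPM and SS mice 0.797 to 1.58 CPM, and its log2 fold change of 1.55 ± 0.70 was -0.01 without mouse-014.

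The same history contrast was then read in mice that the CS and SS comparison does not use. Between CC and SC, 1 of 17024 genes (0.00587%) had an adjusted p under 0.05 with edgeR, the pseudogene Gm11410 (log2 fold change -5.09 ± 0.86 SE, adjusted p = 0.0193), and 1026 (6.03%) had an unadjusted p under 0.05, of which 615 (3.61%) were positive and 411 (2.41%) negative. DESeq2 also called Gm11410, while limma voom called 0 genes, and edgeR called 0 without CC mouse-115 or without SC mouse-043, mouse-083 and mouse-144. Between C24 and S24, 0 genes (0.0%) had an adjusted p under 0.05 with edgeR, DESeq2 or limma voom, and with edgeR 1.14% had an unadjusted one, 91 positive (0.535%) and 103 negative (0.605%), against 217 genes with DESeq2 and 213 with limma voom. Across 17024 genes, which are not independent replicates, the log2 fold changes of CS over SS had a Pearson correlation of 0.11 (Spearman 0.05) with those of CC over SC and of 0.02 (Spearman -0.08) with those of C24 over S24. Osmr had a log2 fold change of 0.50 ± 0.26 (SE) in CC over SC and of 0.04 in C24 over S24, and Socs3 of 1.04 ± 0.38 and 0.02. The CC value of Socs3 rested on mouse-115, with 20.1 CPM, against 2.63 to 4.83 CPM in the other 5 CC mice and 1.99 to 4.33 CPM in SC. That library had the fewest genes detected of the 38 BLA libraries, 20500, and stood apart in unrelated lists too. Its mean log2 level was 0.91 for oxidative phosphorylation genes, against -0.08 to 0.06 in the other CC mice. For NMDA and metabotropic receptor genes it was -0.82, against -0.14 to -0.00. Libraries of mouse-115 from other regions were high on the reactive glia list too. The list stood at 0.83 in CPu, 0.76 in NAc, 0.83 in PFC and 0.77 in VTA, above the other CC mice. In vHipp it stood at 0.51, against -0.39 to 0.63 in the other CC mice. Without CC mouse-115 the log2 fold change of CC over SC was 0.27 ± 0.31 for Socs3 and 0.30 ± 0.26 for Osmr (SE). For Tmem114 the values were -0.34 ± 0.19 in CC over SC, or -0.54 ± 0.18 without CC mouse-115, and 0.19 in C24 over S24, and for Tnc -0.07 and -0.04. The reactive glia list had medians of 0.12 in CC over SC and -0.06 in C24 over S24, and the glucocorticoid list 0.13 and -0.14. Interferon-induced genes had medians of 0.10 in CC over SC and 0.38 in C24 over S24. Without CC mouse-115 the medians in CC over SC were -0.01 for the reactive glia list, -0.07 for the glucocorticoid list and -0.04 for the interferon list. The mean log2 level of the interferon list ran from -0.08 to 1.29 over the C24 mice, against -0.21 to 0.45 over the S24 mice.

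Differences between these contrasts did not pass the test. The history effect after a saline injection minus that after a cocaine injection had an adjusted p under 0.05 in 0 genes (0.0%) with edgeR, in 1 with DESeq2, Gm11410, and in 0 with limma voom, and 578 genes (3.4%) had an unadjusted p under 0.05 with edgeR, 314 (1.84%) positive and 264 (1.55%) negative. The history effect at 30 d minus that at 24 h had an adjusted p under 0.05 in 0 genes (0.0%) with each of the 3 tools, and 457 (2.68%) had an unadjusted p under 0.05 with edgeR, 302 (1.77%) positive and 155 (0.91%) negative. In that contrast Tmem114 again had the smallest p, with a difference of -1.08 ± 0.28 in log2 fold change (SE; unadjusted p = 0.000535, adjusted p = 0.999, edgeR).

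**Figure D5:**
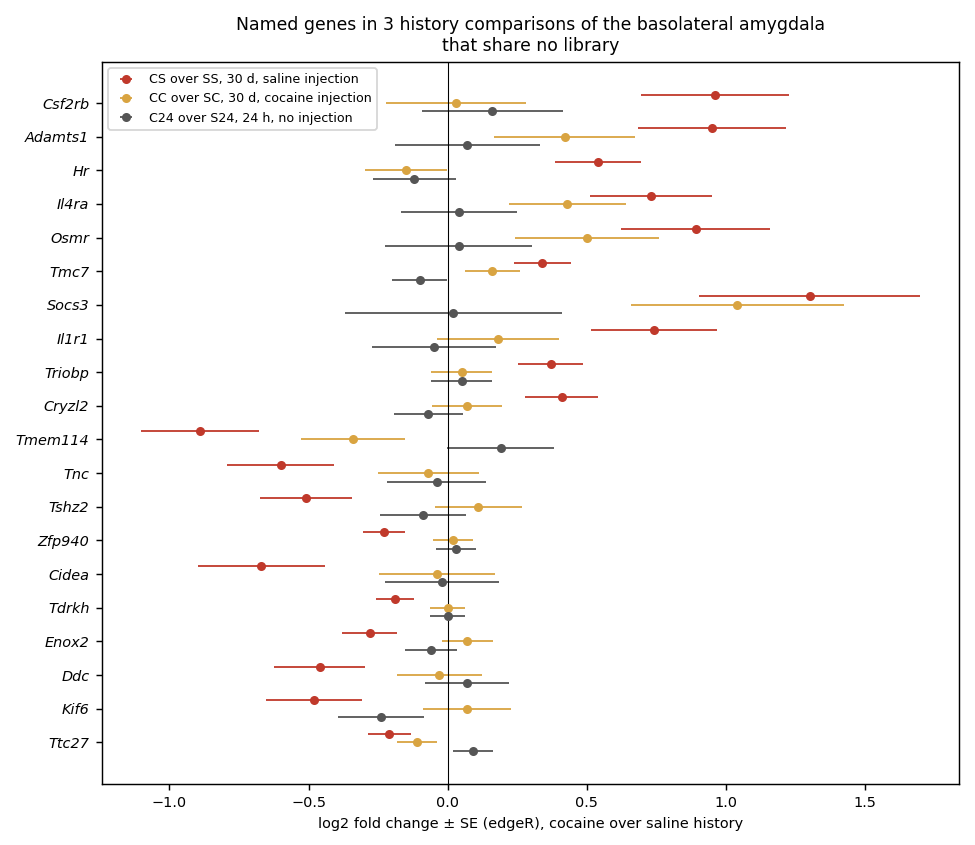
Log2 fold change ± SE of the 20 genes of smallest p in CS over SS (red, 30 d, saline injection), with their values in CC over SC (ochre, 30 d, cocaine injection) and C24 over S24 (grey, 24 h, no injection), which use other libraries but share the estimate of spread. These genes were chosen for their small p in CS over SS, so the red points lie far from 0 relative to their SE. Socs3 stands at 1.30, 1.04 and 0.02 and Tmem114 at -0.89, -0.34 and 0.19 in the 3 comparisons, and the Socs3 value in CC over SC is 0.27 without CC mouse-115.

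The CS and SS difference of the BLA was last set against the mean of the same difference in CPu, NAc, PFC, vHipp and VTA, over 57 further libraries, most of them from the same mice. With edgeR 0 of 18007 genes (0.0%) had an adjusted p under 0.05, and 707 (3.93%) had an unadjusted one, 388 (2.15%) positive and 319 (1.77%) negative. With limma voom 0 had an adjusted p under 0.05 and 664 an unadjusted one. Microglial Tmem119 had the smallest p, with a log2 fold change of 0.28 ± 0.10 in the BLA and -0.18 ± 0.05 over the other 5 regions (difference 0.46 ± 0.11 SE, unadjusted p = 9.33e-05, adjusted p = 0.986, edgeR). Laptm5, a lysosomal membrane gene of immune cells, followed with 0.23 in the BLA and -0.20 elsewhere, and C1qb, a complement subunit, had 0.37 in the BLA and -0.16 elsewhere. The negative means rested mainly on vHipp and VTA, where Tmem119 stood at -0.36 and -0.48, while CPu, NAc and PFC stood at -0.08, 0.00 and 0.03. VTA had only 3 CS libraries, none from mouse-111 or mouse-151. In vHipp the choroid plexus marker genes Folr1 and Sostdc1 stood at 8.34 ± 1.21 and 3.67 ± 0.63, and the fibroblast gene Col3a1 at -2.12 ± 0.47 (SE). CS and SS libraries of vHipp thus differed in markers of neighbouring tissue, and the part of this in the Tmem119 difference was not tested. For Osmr the BLA value of 0.88 compared with 0.63 in CPu, 0.71 in NAc, 0.79 in PFC, 0.16 in vHipp and 0.49 in VTA (difference from their mean 0.33 ± 0.33 SE, unadjusted p = 0.325, edgeR). The edgeR fit had no term for the mouse, so its SE and p ignore the pairing of regions. CS mouse-111 and mouse-151 were high on the reactive glia list in CPu, NAc and PFC as well. Hr stood at 0.53 in the BLA and at -0.17 over the other regions (difference 0.70 ± 0.22 SE, unadjusted p = 0.00231, adjusted p = 0.986, edgeR).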

How the data were processed

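RNA of mouse brain tissue was depleted of ribosomal RNA before library construction, per the labels' protocols, although the molecule field reads polyA RNA. The deposited table holds unnormalized read counts per Ensembl gene, made by the authors with HTSeq on mm10, per the submitters' processing notes, which also name limma. The aligner, annotation release and strand setting are not given in the sources used here. Of 43346 identifiers, 42462 had a symbol in GENCODE M21.

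Each of the 38 BLA libraries entered a single edgeR 4.0.16 fit (R 4.3.3; filterByExpr with counts of at least 10 and totals of at least 15, TMM, robust quasi-likelihood F test) with 6 condition means, and all genes entered the Benjamini-Hochberg adjustment. Sharing the spread over 6 conditions assumes that they vary alike. The difference from other regions was fitted on the CS and SS libraries of 6 regions. CPM values are TMM-scaled, list levels are means of log2(CPM + 0.5), and SE is the log2 fold change divided by the root of F. DESeq2 1.42.0, limma voom 3.58.1, sva 3.50.0 with 2 surrogate variables, no filter, and libraries left out were alternatives. The code was tested on simulated data. Counting error alone limits genes of few reads.

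Named genes were the 10 protein-coding genes of smallest p in each direction with a mean of at least 1 CPM, the 3 members of smallest p in each of 31 lists, and 8 genes named in earlier work. Of these, 2 list members are not reported here. Other list members were named after their values were seen. Members and lists were chosen with earlier results of these data known.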

Additional observations from a re-analysis of the deposited data

Results flagged for a closer look

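In each group of 5 or 7 libraries, 1 library was looked for that stood apart from the rest by Dixon's 95% criterion, in the CPM of the named genes and in the mean log2 level of the 31 lists. Of 288 groups, 35 met it, where chance gives about 1 in 20, and the groups are not independent because lists and genes share libraries.

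In CS mouse-151, 9 values stood apart. Those of Adamts1 (32.9 CPM), Hr (27.0 CPM), Gfap (159 CPM), Hcn2 (194.8 CPM), Trf (18.5 CPM), Neu4 (17.9 CPM), Ly6c1 (55.2 CPM) and Ogn (4.05 CPM) were the highest in CS, and Grm8 (17.5 CPM) was the lowest.

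In CS mouse-091, 7 values stood apart. Cnih3 (140 CPM), Chrna3 (1.73 CPM) and Htr3a (9.10 CPM) were the highest in CS. Tnc (9.15 CPM), Npas2 (38.4 CPM), the striatal and central amygdala marker level (-1.79) and the blood cell marker level (-0.32) were the lowest. Pomc was highest at 11.5 CPM in CS mouse-014, and Syt1 at 1496 CPM in CS mouse-072.

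In SS mouse-143, 7 values stood apart, with Gfap at 71.9 CPM, Grik3 at 259 CPM, Cyp26a1 at 1.90 CPM, Fgfr3 at 179 CPM and the chromatin regulator level at 0.15 as the highest in SS, and Uqcrc2 at 139 CPM and the blood cell marker level at -0.80 as the lowest. In SS mouse-122, Ddc (28.2 CPM), Tac2 (88.1 CPM), Prkcd (110 CPM) and Pomc (1.58 CPM) were the highest and Psmb8 (0.669 CPM) the lowest. Steap4 at 2.38 CPM and S100a8 at 1.78 CPM were highest in SS mouse-073. C1qb was highest at 56.2 CPM and Hdac9 lowest at 21.5 CPM in SS mouse-011, and Gabra2 was highest at 73.8 CPM in SS mouse-162.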

How the results depend on the processing

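Between CS and SS, 0 genes had an adjusted p under 0.05 under each alternative run, including the fit of the 12 libraries alone and those leaving out each library. The number at an unadjusted p under 0.05, 500 as reported, was 1021 with no filter on low counts and 249 without mouse-111 and mouse-151, an alternative added after the data were seen, and ran from 196 to 889 when 1 library was left out. Between CC and SC the 1 called gene was 0 with limma voom, with no filter, with 2 surrogate variables, without SC mouse-043, mouse-083 and mouse-144 (which hold the predicted gene Gm20594), and without CC mouse-115, these last also chosen after the data were seen. With no filter, genes at an unadjusted p under 0.05 were 726 between C24 and S24, where the filtered fit had 1.14% of genes,, 1099 in place of 578 for the difference between injections and 1083 in place of 457 for that between times. DESeq2 called 1 gene for the difference between injections, where edgeR called 0. The cause was not tested.

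Without mouse-111 and mouse-151 the log2 fold change changed sign for Maff (-0.01), Bag3 (-0.07), Hapln2 (-0.11), Mobp (-0.08), Nefm (-0.04), Serpina3n (-0.05), Fos (0.01) and Arc (0.04). Leaving out 1 library gave -0.02 to 0.09 for Abhd6, -0.01 to 1.81 for Pomc and -0.09 to 0.04 for Arc. Of 2144 values of named genes under alternatives, 14 changed sign.

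Title numbers pair libraries across regions only. Libraries of the same number in different regions deviated together with a correlation above 0.1 in 41 of 140 pairs (median r 0.041), against 177 of 865 pairs of different numbers in the same condition (median r -0.005). With the mouse as a replicate block in limma voom, the BLA difference from other regions again had 0 genes at an adjusted p under 0.05 and 663 at an unadjusted one, against 664 without the block. The correlation within mice that this fit estimated over all genes was -0.00287, so the block could hardly change the result. It therefore does not check the pairing for single genes. Genes of few reads, such as Tmem114, Cidea and Csf2rb, are limited by depth.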
